A study of Mus musculus with 6 samples.

Results

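The genes described here repair DNA double strand breaks and replication mismatches, and they were measured in whole testes of Alkbh1 knockout mice (KO) and wild-type mice (WT). A list of 33 genes was taken by symbol from the array annotation. Of these, 31 had at least 1 probe set that named them alone, 69 probe sets in all among the 45037 of the array that were not controls. Rbbp8 and Xrcc2 were not analysed here. Probe sets, each made of short probes to 1 transcript stretch, numbered from 1 to 6 per gene.

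The KO group consisted of 3 Alkbh1-/- mice and the WT group of 3 mice without the deletion, all 12 weeks old and on the C57/BL6 background given in the source label (the genotype field writes C53/BL6, with the deletion added for KO). Each mouse gave 1 array with log2 expression values normalized by the authors. Which part of Alkbh1 was deleted, in which cells the deletion arose and whether KO and WT mice were littermates are not stated in the sources used here. Whole testis mixes germ cells with somatic cells, so that fewer cells of a type and less RNA per cell cannot be told apart.

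Double strand breaks are made on purpose in the testis, when spermatocytes cut their own chromosomes to start meiotic recombination. The MRN complex senses a break and activates the kinase ATM, resected ends activate ATR, and the effector kinases CHK2 and CHK1 carry the signal on. Breaks are then mended by homologous recombination, which copies from an intact sister or homologue, or by end joining, which ligates the ends directly. Mismatch repair removes bases that polymerases have misplaced, and several of its proteins also act on recombining chromosomes.

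Alkbh1 was checked first. Its probe set 1434660_at read 5.76, 5.30 and 5.20 log2 in KO testes, against 8.43, 8.65 and 8.72 in WT testes, a difference of −3.18 (limma adjusted p = 0.000582). Its other probe set, 1438681_at, read 6.03, 5.78 and 6.10 in KO, against 6.97, 6.82 and 7.16 in WT. That difference was smaller, at −1.02, and did not pass (limma adjusted p = 0.0697), though no values overlapped. Both check the labels only if the probes lie in the deleted part. The tissue was checked by its markers. All 6 elongating spermatid markers and all 7 spermatocyte markers lay above the level filter, with mean log2 values from 14.04 to 14.98 and from 8.60 to 13.40. The 4 epididymis markers with a probe set lay under the filter, at 3.95 to 5.44. Of the marker lists of 12 cell types and tissues, no gene passed the test between KO and WT. Only the spermatocyte marker Dmc1 had an unadjusted p under 0.05, where 5.11% of all probe sets did. Its probe set 1420335_at stood at −0.15 ± 0.06 (SE, limma adjusted p = 0.939), with all KO values below all WT values. The second probe set of Dmc1 stood at −0.01 ± 0.09. Summed linear signals of spermatocyte markers ran from 35353 to 36374 in KO and from 32918 to 36750 in WT. Those of spermatogonial markers ran from 1692 to 1723 in KO and from 1654 to 1842 in WT. All 6 round spermatid markers were higher in KO (median difference 0.064 log2), with sums from 31588 to 34276 in KO and from 30191 to 32809 in WT. All 6 elongating spermatid markers were also higher in KO (median 0.025), with sums from 156251 to 161211 in KO and from 153209 to 159508 in WT. The fat markers, of which 2 had a probe set, varied most, with sums from 469 to 1307 in KO and from 374 to 701 in WT. Correlations between arrays ran from 0.989 to 0.996 across probe sets, which are not independent replicates. WT replicate 1 held the lowest value of the 6 arrays for 32.5% of all genes measured.

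None of the 31 repair genes passed the test between KO and WT. The level filter kept the upper 60% of probe sets by mean over all arrays, and 52 of the 69 probe sets passed it, at least 1 for each of the 31 genes. Of these 52, 0 passed (limma, Benjamini-Hochberg adjusted p under 0.05 over all 27022 probe sets tested), where 0.0407% of all probe sets passed. At an unadjusted p under 0.05 there were 3 of 52, read against 5.11% of all probe sets. This count was 8 without WT replicate 1 (10.6% of all probe sets), 7 without WT replicate 2 (5.97%) and 12 with array weights (12.6%), and 0 passed after adjustment in each of these limma fits. The smallest adjusted p was 0.765 in limma, for a probe set of Brca1. In 6 of the 52 the KO and WT values did not overlap, a share close to the 11.0% of all probe sets that had this trait. The 5 with all KO values above all WT values are set against 7.12% of all probe sets, and the 1 with all KO values below against 3.84%.

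Each gene is summarised by its tested probe set with the highest mean. By that measure 21 repair genes were higher in KO and 10 lower, or 67.7% higher, where 55.9% of 13897 genes were higher. The median KO minus WT difference was 0.038 log2 for the repair genes and 0.012 for all genes. Differences ran from −0.17 to 0.23 log2, and 30 of 31 were under 0.2 in size, as were 93.8% of all genes. In 12 of the 31 the difference exceeded the spread between replicates (pooled SD), against 31.1% of all genes. The split moved with the WT arrays. WT replicate 1 held the lowest value for 15 of the 31 repair genes (48.4%). Without it 16 were higher and 15 lower, and the median was 0.007, against 0.000 for all genes. Without WT replicate 2 there were 22 higher and 9 lower, with a median of 0.069, against 0.017 for all genes. Without both there were 18 higher and 13 lower, with a median of 0.040, against −0.005 for all genes. Without WT replicate 3 there were 19 higher and 12 lower, with a median of 0.041, against 0.019 for all genes. The spermatid markers were higher in KO too, and their part in the split was not tested. Quantile normalization gave 18 higher and 13 lower. The same setting moved the share of all genes that were higher in KO to 48.3%. Array weights gave 19 higher and 12 lower, where 50.1% of all genes were higher.

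**Figure D1:**
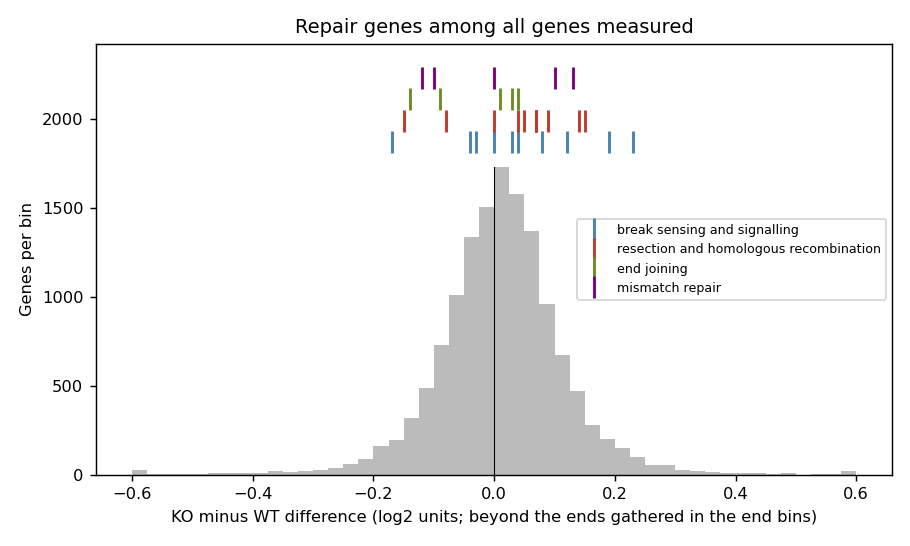
The grey histogram counts genes (y axis) by KO minus WT difference in log2 units (x axis) over 13897 genes, with differences beyond 0.6 gathered in the end bins. Coloured ticks above it are the 31 repair genes by role, and all lie between −0.17 and 0.23, within the bulk of the genes.

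The data also bound how large a difference in measured signal could have been. The 95% interval of the difference lay within 0.5 log2 of 0 (1.41-fold) for 30 of the 31 genes, each at its probe set with the highest mean, and within 0.25 for 13. Of all 13897 genes, 13203 lay within 0.5. Atm was the exception, with an interval from −0.59 to 0.26. Over all 52 tested probe sets 45 lay within 0.5, and the limits reached −0.72 and 0.59, the last for Atr 1438921_at. The intervals are not adjusted for the number of genes. A change confined to a small share of the cells would be diluted in whole testis and could lie inside these bounds. So could a larger change in RNA where background takes part of the signal, as it may at low values such as those of Chek2 and Rad52.

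**Figure D2:**
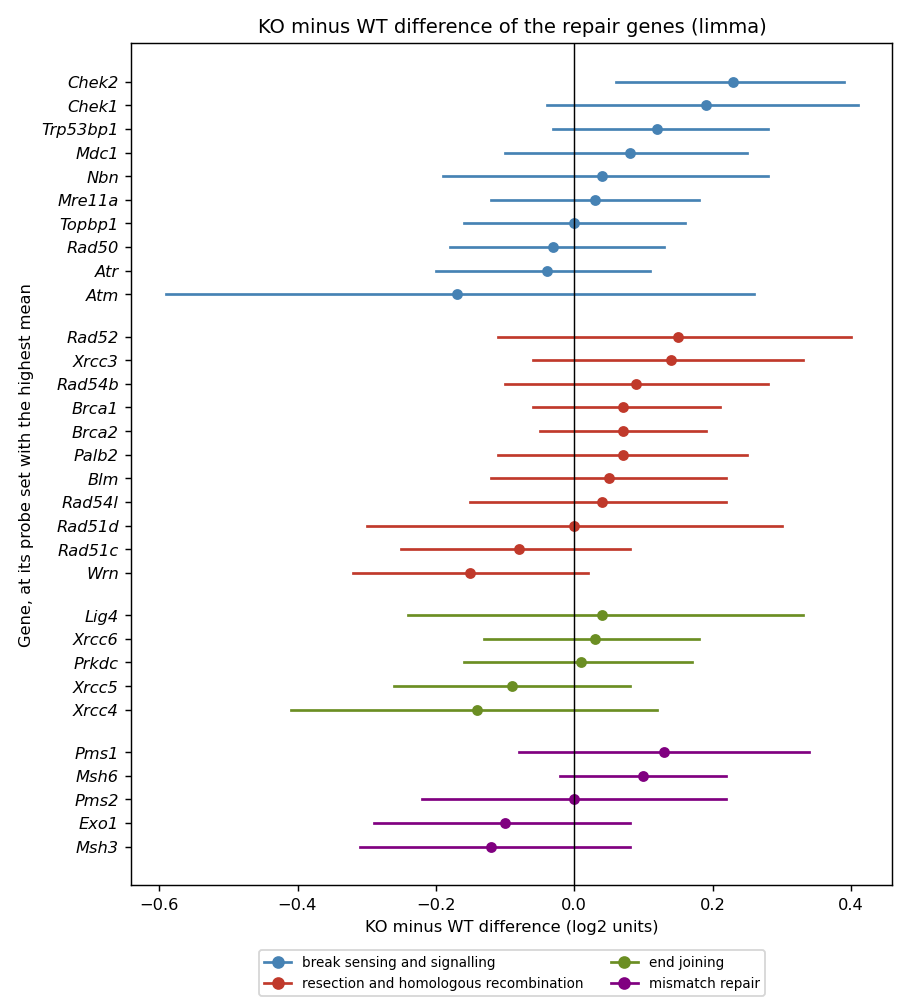
Points give the KO minus WT difference (x axis, log2 units) of each repair gene (y axis) at its probe set with the highest mean, and lines the 95% limma interval from 3 KO and 3 WT arrays. Chek2 is the only gene whose interval at this probe set leaves out 0 (0.06 to 0.39), and Atm has the widest interval.

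Break sensing and signalling was measured by 10 genes and 19 tested probe sets, of which 0 passed in limma. At an unadjusted p under 0.05 there were 2 of 19, read against 5.11% of all probe sets. These 2 belonged to the effector kinases of the checkpoint. Chek1, on chromosome 9, encodes CHK1, the kinase downstream of ATR. Its probe set 1450677_at read 7.48, 7.41 and 7.66 log2 in KO testes, against 7.10, 7.20 and 7.25 in WT testes. All KO values lay above all WT values. The difference was 0.34 ± 0.09 (SE, n = 3 each, limma adjusted p = 0.835), with an interval from 0.14 to 0.54.

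The other tested probe set of Chek1, 1449708_s_at, read 7.94, 7.99 and 8.19 in KO against 7.76, 8.00 and 7.80 in WT. Here WT replicate 2 lay among the KO values, and the difference was 0.19 ± 0.10 (limma adjusted p = 0.993). The suffix _s_at marks a probe set that can also read other transcripts. Its 3 remaining probe sets had mean values in both groups between 4.02 and 4.70, too low for the level filter, and differed by 0.03, 0.03 and 0.13.

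Chek2, on chromosome 5, encodes CHK2, the kinase downstream of ATM. It had 1 probe set, which read 6.68, 6.81 and 6.78 in KO against 6.52, 6.53 and 6.54 in WT. The WT values lay within 0.02 of each other and below all KO values. The difference was 0.23 ± 0.07 (limma adjusted p = 0.863), with an interval from 0.06 to 0.39. With both groups near the lowest level kept by the filter (6.02), background may take a large part of the signal, where a fold change is understated.

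**Figure D3:**
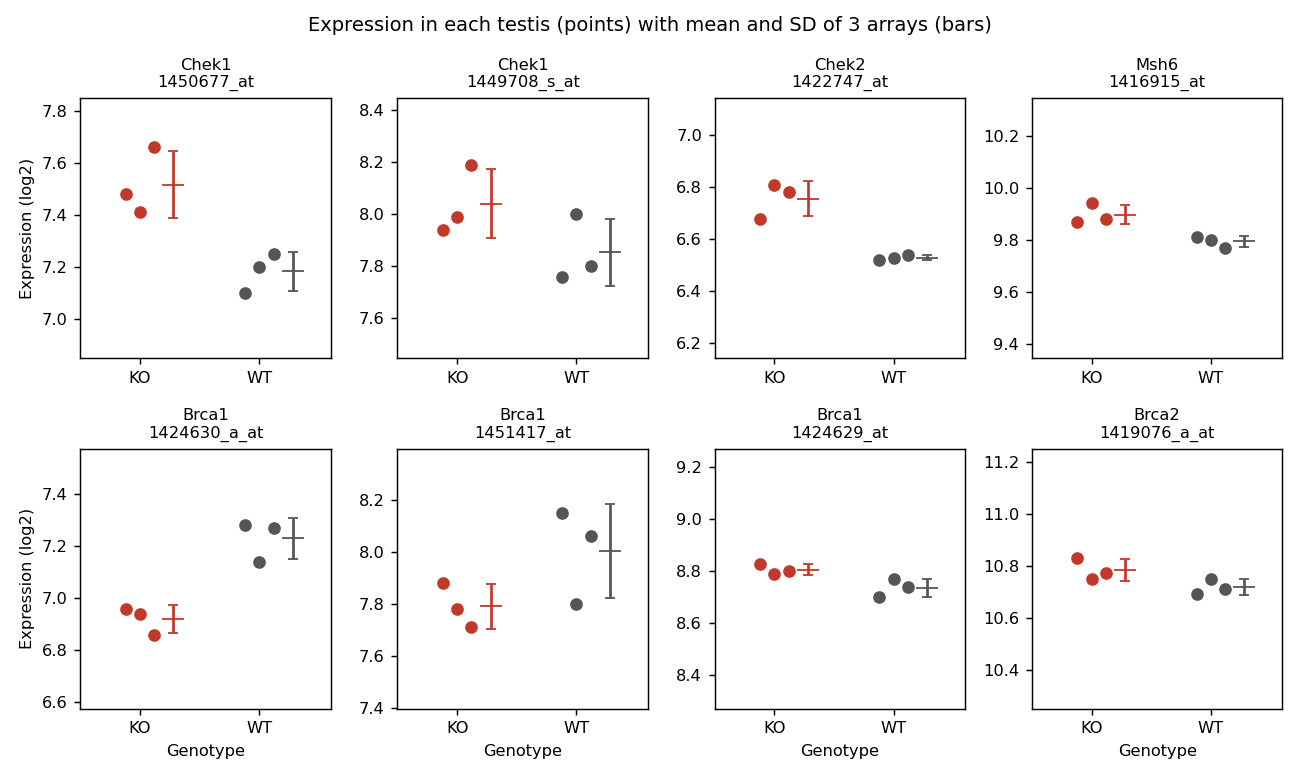
Points are single testes, KO at the left and WT at the right of each panel, and bars give the mean and SD of 3 arrays on a log2 axis of equal span (1 unit) in all panels. Chek1 1450677_at and Chek2 stand higher in KO and Brca1 1424630_a_at lower, without overlap. By smaller differences Brca1 1424629_at and Msh6 also stand higher in KO without overlap, as does Brca2 before rounding. Values of 1449708_s_at of Chek1 and 1451417_at of Brca1 overlap.

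The apical kinases gave smaller or less certain differences. Atm, mutated in ataxia telangiectasia, read 8.13, 8.19 and 7.78 in KO against 8.42, 8.39 and 7.79 in WT at probe set 1421205_at. Replicate 3 was low in both groups, and the difference was −0.17 ± 0.18. It became 0.24 when WT replicates 1 and 2 were left out, which leaves WT replicate 3 alone, and its second probe set stood at 0.03 ± 0.07. Atr read 12.27, 12.30 and 12.39 in KO against 12.25, 12.45 and 12.38 in WT, a difference of −0.04 ± 0.07. Its other tested probe sets had the opposite sign, at 0.13 ± 0.20 and 0.04 ± 0.06. Topbp1, which activates ATR, read 10.58, 10.49 and 10.40 in KO against 10.42, 10.58 and 10.49 in WT, with both means at about the same level (10.49 and 10.50).

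The MRN complex showed little difference in its 3 subunits. Rad50, the long coiled-coil ATPase, stood at −0.03 ± 0.07. The nuclease gene Mre11a stood at 0.03 ± 0.07 and at −0.02 ± 0.09. Nbn, which couples the complex to ATM, stood at 0.04 ± 0.10. Of the mediators that gather at damaged chromatin, Mdc1 stood at 0.08 ± 0.08. Trp53bp1, which shields ends from resection, had 5 tested probe sets. The pair with the highest means stood at 0.12 ± 0.07 and 0.09 ± 0.06. The other 3 stood at 0.12 ± 0.18, −0.09 ± 0.24 and −0.11 ± 0.26. The last 2 had the widest errors, and KO replicate 1 was low there, where 1457812_at read 6.45, against 7.18 and 7.42 in the other KO testes and 6.81, 7.32 and 7.18 in WT.

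Homologous recombination was measured by 11 genes, of which 9 were higher in KO and 2 lower (81.8% higher, against 55.9% of all genes). This split takes each gene at its probe set with the highest mean. Of the 9, Brca1 (0.07), Rad51d (0.00 when rounded) and Xrcc3 (0.14) had other tested probe sets below 0. The 2 counted as lower, Rad51c and Wrn, each had another tested probe set above 0. The median difference was 0.070 log2, against 0.012 for all genes. Of 19 tested probe sets 0 passed in limma, and 1 had an unadjusted p under 0.05, where 5.11% of all probe sets did. That 1 belonged to Brca1, on chromosome 11, which promotes resection and helps to load the strand-exchange recombinase. Probe set 1424630_a_at read 6.96, 6.94 and 6.86 in KO against 7.28, 7.14 and 7.27 in WT. Every KO value lay below every WT value, and the difference was −0.31 ± 0.07 (limma adjusted p = 0.765), with an interval from −0.48 to −0.15.

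Of the 2 other tested probe sets of Brca1, 1 had the same sign and 1 the opposite sign. Probe set 1451417_at read 7.88, 7.78 and 7.71 in KO against 8.15, 7.80 and 8.06 in WT, where WT replicate 2 lay among the KO values (−0.21 ± 0.10, with an interval from −0.45 to 0.02). Probe set 1424629_at, with the highest mean, read 8.83, 8.79 and 8.80 in KO against 8.70, 8.77 and 8.74 in WT. There all KO values lay above all WT values, with a difference of 0.07 ± 0.06. The probe set under the filter stood at −0.01. No direction can be given for Brca1 as a gene from these values, and which exons each probe set reads is not given in the files.

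Brca2, which loads the recombinase, read 10.83, 10.75 and 10.77 in KO against 10.69, 10.75 and 10.71 in WT. KO replicate 2 and WT replicate 2 were equal at this rounding. Before rounding all KO values lay above all WT values, so Brca2 is among the 5 probe sets counted that way. The difference was 0.07 ± 0.05 with an interval from −0.05 to 0.19. Palb2, which bridges BRCA1 and BRCA2, also stood at 0.07 (± 0.08). The recombinase paralogues differed among themselves. Rad51c stood at −0.08 ± 0.07 and 0.02 ± 0.06. Rad51d read 8.21, 8.30 and 8.51 in KO against 8.54, 8.08 and 8.39 in WT at its highest probe set, with means of 8.34 in both groups, while 1422770_at stood at −0.19 ± 0.10. Xrcc3 stood at 0.14 ± 0.08 and −0.05 ± 0.08.

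Differences of the strand exchange motors, the annealing protein and the helicases ran from −0.15 to 0.15. Rad54l, a motor protein of strand exchange, stood at 0.04 ± 0.08 and its relative Rad54b at 0.09 ± 0.08. Another 2 probe sets that name Rad54b together with Fsbp were left out. Rad52, an annealing protein, stood at 0.15 ± 0.11, where KO replicate 3 read 6.57 and all other testes from 6.15 to 6.29. Of the RecQ helicases, Blm, mutated in Bloom syndrome, stood at 0.05 ± 0.07. Wrn, mutated in Werner syndrome, read 8.87, 8.80 and 8.85 in KO against 8.87, 9.04 and 9.06 in WT. WT replicate 1 lay with the KO values, and the difference was −0.15 ± 0.07 (limma adjusted p = 0.993), with 0.05 ± 0.11 and −0.02 ± 0.16 at its 2 other probe sets.

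End joining was measured by 5 genes, of which 3 were higher in KO and 2 lower (median 0.007). Of 6 tested probe sets 0 passed in limma, and 0 had an unadjusted p under 0.05, where 5.11% of all probe sets did. The KU subunits, which cap broken ends, stood at −0.09 ± 0.07 for Xrcc5 and 0.03 ± 0.07 for Xrcc6. Prkdc, the kinase recruited by KU, read 8.23, 8.21 and 8.36 in KO against 8.24, 8.33 and 8.21 in WT, a difference of 0.01 ± 0.07. The ligase gene Lig4 stood at 0.04 ± 0.12. WT replicate 1 (9.05) was its lowest value, below 9.35 in KO replicate 2. Xrcc4, the partner of the ligase, read 10.16, 10.17 and 10.34 in KO against 10.13, 10.58 and 10.38 in WT at 1424602_s_at. By its suffix, that probe set can also read other transcripts. Its difference of −0.14 ± 0.11 came with −0.07 ± 0.06 at the other probe set of Xrcc4. No end joining gene had groups without overlap, a trait of 11.0% of all probe sets. With 6 probe sets, a count of 0 cannot be told apart from these shares.

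Mismatch repair was measured by 5 genes, of which 3 were higher in KO and 2 lower (median 0.001). Of 8 tested probe sets 0 passed in limma, and 0 had an unadjusted p under 0.05, where 5.11% of all probe sets did. Msh6, on chromosome 17, encodes the subunit that recognises single mispaired bases. It read 9.87, 9.94 and 9.88 in KO against 9.81, 9.80 and 9.77 in WT. The groups did not overlap, yet the difference was only 0.10 ± 0.05 (limma adjusted p = 0.993), with an interval from −0.02 to 0.22. Msh3, the subunit for larger loops, stood at −0.12 ± 0.08 and 0.01 ± 0.13. Another tested probe set of Msh3, 1446511_at, read 6.09, 6.32 and 6.05 in KO against 5.76, 6.10 and 5.83 in WT (0.26 ± 0.12) with a mean of 6.02, the lowest the filter kept.

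Of the MutL genes, Pms2, which carries the nicking activity, read 7.38, 7.31 and 7.29 in KO against 7.40, 7.44 and 7.13 in WT, with equal means of 7.33. Pms1 read 6.87, 6.85 and 6.93 in KO against 6.91, 6.73 and 6.62 in WT. WT replicate 1 lay among the KO values, and the difference was 0.13 ± 0.09. The exonuclease gene Exo1, which also resects break ends, stood at −0.10 ± 0.08 and −0.06 ± 0.10.

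Of the 13 genes with several tested probe sets, 10 had differences on both sides of 0. None of the 13 had opposite differences each over 0.15 log2 in size. Chek1, Xrcc4 and Exo1 had all differences on 1 side of 0. The gap between the lowest and the highest difference was widest in Brca1 (0.39) and Msh3 (0.38) and narrowest in Exo1 (0.04). That of Msh3 rests on 1446511_at, which stood at the filter limit of 6.02, with means of 6.15 in KO and 5.89 in WT. The other tested probe sets of Msh3 stood at −0.12 and 0.01. The 17 probe sets under the filter, from 12 genes, had differences from −0.21 to 0.13 and were not tested.

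**Figure D4:**
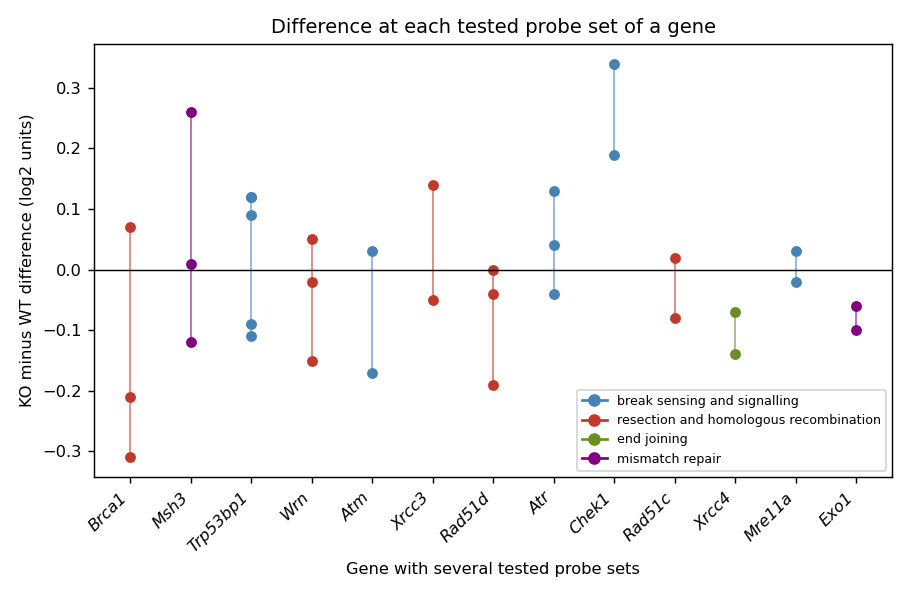
Each point is 1 tested probe set, placed by its KO minus WT difference (y axis, log2 units), for the 13 repair genes with several tested probe sets (x axis), ordered by the gap between them. Brca1 spans from −0.31 to 0.07, while both Chek1 points lie above 0.

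Other genes of these pathways gave the same count of calls. A list of 59 such genes (damage signalling, recombination, Fanconi anaemia, end joining and mismatch repair) had 49 with a tested probe set. Of its 75 tested probe sets 0 passed in limma, and 2 had an unadjusted p under 0.05, where 5.11% of all probe sets did. Of the 49 genes 28 were higher in KO and 21 lower (57.1% higher, against 55.9% of all genes), with a median of 0.006. Each taken at its highest probe set, the genes with the smallest p were Rad51b, Pold1, Bre and Rpa3. Rad51b, another recombinase paralogue, read 7.57, 7.32 and 7.32 in KO against 7.72, 7.70 and 7.81 in WT. The difference was −0.34 ± 0.09 (limma adjusted p = 0.835), with no KO value above a WT value. Its other probe set, under the filter, stood at −0.02. Rad51b lies on chromosome 12, as does Alkbh1, and a part of sequence linked to the deletion was not tested. Pold1 encodes the catalytic subunit of polymerase delta, and its probe set 1456055_x_at stood at −0.22 ± 0.09 and its other probe set at −0.05 ± 0.11. Bre, a subunit of a BRCA1 complex, stood at 0.10 ± 0.05, and Rpa3, of the protein that coats single-stranded DNA, at 0.27 ± 0.15.

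The promoters of Chek1, Chek2 and Brca1 are shown because these genes held the 3 probe sets at an unadjusted p under 0.05. The sequences are the 250 bases before the annotated start, from RefSeq (GRCm38.p6). Capitals mark CCAAT on either strand (the CCAAT box, bound by NF-Y) and the E2F motif, searched as TTTGGCGC, TTTCCCGC, TTTGCCGC and TTTCGCGC on both strands. E2F factors drive S phase genes, among them many repair genes.
Chek1: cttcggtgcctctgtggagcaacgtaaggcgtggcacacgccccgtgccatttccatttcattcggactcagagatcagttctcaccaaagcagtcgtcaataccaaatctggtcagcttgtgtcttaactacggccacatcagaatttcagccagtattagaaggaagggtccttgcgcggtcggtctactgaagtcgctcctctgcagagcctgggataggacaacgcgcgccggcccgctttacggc
Chek2: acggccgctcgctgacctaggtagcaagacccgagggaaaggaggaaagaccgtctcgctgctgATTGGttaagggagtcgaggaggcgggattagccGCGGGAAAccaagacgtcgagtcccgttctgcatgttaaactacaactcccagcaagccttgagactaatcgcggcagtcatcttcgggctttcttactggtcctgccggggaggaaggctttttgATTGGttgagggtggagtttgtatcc
Brca1: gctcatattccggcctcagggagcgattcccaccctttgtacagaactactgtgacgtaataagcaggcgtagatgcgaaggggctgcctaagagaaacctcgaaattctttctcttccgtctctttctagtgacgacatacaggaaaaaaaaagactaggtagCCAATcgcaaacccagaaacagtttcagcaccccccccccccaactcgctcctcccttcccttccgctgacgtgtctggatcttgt
Chek1 (chr9:36726659-36726908, minus strand) held neither motif in these letters. Chek2 (chr5:110839733-110839982, plus strand) held 2 CCAAT boxes and 1 E2F match. Brca1 (chr11:101551956-101552205, minus strand) held 1 CCAAT box.

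Promoters were found for 24 of the 31 genes (27 promoters). CCAAT occurred in 48.1% of these, where 33.8% of 32851 promoters held it. An E2F match occurred in 22.2%, where 1.86% of all promoters held one, and it belonged to 6 genes. Their matches are shown in capitals with up to 10 bases on each side, to show the letters behind this share.
Chek2 (chr5:110839821-110839848, plus strand): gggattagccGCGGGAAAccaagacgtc
Brca2 (chr5:150522443-150522470, plus strand): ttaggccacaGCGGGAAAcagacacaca
Topbp1 (chr9:103305188-103305215, plus strand): cgctcggttgGCGCGAAAgtcggttccc
Msh3 (chr13:92355188-92355215, minus strand): tgccgtcaagTTTGGCGCgaaatcgcag
Xrcc6 (chr15:82016313-82016340, plus strand): gggggtggaaGCGGGAAAtgcgagtggg
Mdc1 (chr17:35841472-35841497, plus strand): cttcagcctgTTTCCCGCcggtagcc
The match in Msh3 overlaps a second one, GCGCGAAA, on the other strand by its last letters. Differences of the genes with a match lay on both sides of 0. They were 0.23 for Chek2, 0.08 for Mdc1, 0.07 for Brca2, 0.03 for Xrcc6, 0.00 for Topbp1 and −0.12 for Msh3. A match describes letters only and does not show that a factor binds there.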

How the data were processed

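The authors deposited 1 table of log2 expression values for 45101 probe sets on 6 Affymetrix arrays of whole testis RNA. The values ran from 2.61 to 15.00, with array medians from 6.62 to 6.64. GCOS 1.4 is named in the submitters' processing notes, while background correction, probe summary and normalization are not stated there. Scaling the arrays to each other can hide a shift shared by all genes. Arrays are limited in precision by their number.

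Of 64 control probe sets none was used. From the other 45037, the upper 60% by mean were kept (27022). Names came from the platform annotation, updated through a RefSeq table (GRCm38.p6). A single gene was named by 34945 probe sets, several by 932 and none by 9160. KO and WT were set by the sample titles and compared by limma 3.58.1 (R 4.3.3; lmFit, eBayes with trend, two-sided), with Benjamini-Hochberg adjustment over all kept probe sets. The labels call the samples biological replicates. The median standard error was 0.08 log2. Lists were described by counts and medians only. The repair genes, the other lists and the tests were chosen with earlier results of these data known. The rule for values per testis took genes with a probe set at an unadjusted p under 0.05 or without overlap, and the largest and smallest difference of the rest of each role. Values of Atr, the Msh3 1446511_at probe set, the second tested ones of Chek1 and Brca1 and 1 of Trp53bp1 were added after they were seen, as were Rad52 and Lig4 and the choice of promoters and motifs. Alternatives covered normalization, filter, replicate block, moderation, array weights, choice of probe set and leaving out arrays. The fit was tested in 10 runs of simulated data, with noise independent between probe sets. It recovered 72.9% of changes of 0.5 log2 and 98.5% of changes of 1 log2, and 6.29% of its calls were false. Each run held many more changed probe sets than the 11 that passed in the real data. The adjustment is less strict when more probe sets pass, so these shares can overstate what the real comparison would recover. Smaller changes were not simulated. Figures were drawn with matplotlib 3.10.9.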

Additional observations from a re-analysis of the deposited data

How the results depend on the processing

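The count of 0 repair gene probe sets past the threshold, and of 0 other pathway genes, held in limma under all 14 alternatives. The smallest adjusted p of any repair gene over them was 0.132, for Brca1 1424630_a_at with array weights. The difference at that probe set ran from −0.36 to −0.28 under the 13 alternatives that tested it, that of Chek1 1450677_at from 0.26 to 0.39 and that of Chek2 from 0.20 to 0.26. The median difference of 0.038 ran from 0.007 to 0.069 when single arrays were left out, was 0.040 without WT replicates 1 and 2, was 0.031 after quantile normalization and stayed at 0.038 with probe sets averaged or chosen in another way. Of 714 differences recomputed, 61 changed sign, in 27 of the 52 probe sets, and none of these passed. Array weights turned Atm 1421205_at to 0.12, Rad51c 1423026_at to −0.01, Rad51d 1425944_a_at to −0.01 and 1443891_at to 0.03, Lig4 to −0.09, Mre11a 1441990_at to 0.04 and Blm to −0.01. Quantile normalization turned Msh3 1422261_a_at and Pms2 to −0.01, and Prkdc and Rad51d 1425944_a_at to just under 0 (0.00 when rounded). With arrays left out, differences in signalling genes ran from −0.37 to 0.24 for Atm 1421205_at and −0.01 to 0.11 for 1428830_at, −0.10 to 0.00 for Atr 1427197_at and −0.05 to 0.29 for 1438921_at, −0.01 to 0.12 for Mdc1 and −0.05 to 0.13 for Nbn. They ran from −0.01 to 0.07 for Mre11a 1416748_a_at and −0.05 to 0.05 for 1441990_at, −0.06 to 0.00 for Rad50 and −0.05 to 0.04 for Topbp1. Those of Trp53bp1 ran from −0.04 to 0.31 at 1435609_at, −0.30 to 0.20 at 1442316_x_at and −0.29 to 0.20 at 1457812_at. In recombination genes they ran from 0.00 to 0.09 for Blm, −0.01 to 0.13 for Palb2, −0.02 to 0.06 for Rad51c 1423026_at, −0.12 to 0.11 for Rad51d 1425944_a_at and −0.12 to 0.10 for 1443891_at. They ran from −0.02 to 0.08 for Rad54l, −0.07 to 0.14 for Wrn 1425074_at and −0.21 to 0.10 for 1425982_a_at. In end joining and mismatch repair genes they ran from −0.13 to 0.13 for Lig4, −0.04 to 0.06 for Prkdc, 0.00 to 0.07 for Xrcc6, −0.14 to 0.00 for Exo1 1418027_at, −0.09 to 0.16 for Msh3 1422261_a_at and −0.10 to 0.19 for Pms2. The change exceeded 1 SD in 2 cases, 0.24 for Atm 1421205_at and 0.10 for Rad51d 1443891_at, both without WT replicates 1 and 2, where 1 WT array remains and its spread is assumed to equal that of the KO arrays. The count of 6 probe sets without overlap ran from 9 to 29 with fewer arrays, which separate more easily. Over all probe sets that share was 28.9% without WT replicate 1, where 18 repair probe sets did not overlap, and 51.4% without WT replicates 1 and 2. A replicate block called 0 repair gene probe sets in limma, with 5 at an unadjusted p under 0.05, read against 5.61% of all probe sets. Without the block there were 3, read against 5.11%. The count at an unadjusted p under 0.05 ran from 3 to 8 with single arrays left out, read against 2.84% to 10.6%. It was 12 with array weights, read against 12.6%. Same-numbered KO and WT arrays deviated together with correlations of 0.223, −0.024 and 0.096, and 1 of 3 KO arrays correlated best with its own number, so the numbers were not taken to pair the mice. How far each probe set stands above background is unknown, which limits what the low values of Chek2, Rad52 and Msh3 1446511_at can show.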

Other observations

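The median SD within groups was 0.089 log2 for the repair genes and 0.092 for all genes measured, each gene taken at its probe set with the highest mean.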
